A study of Drosophila melanogaster with 13 samples.

Results

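The genes described here are 60 histone modifiers and chromatin regulators of Drosophila, taken by name, together with every CREB/CRTC-binding site that the deposited table assigned to 1 of them. A CREB/CRTC-binding site is a stretch of DNA bound by CRTC that lies within 200 bp of a site bound by CREB. The table held 4995 such regions at 2833 genes, and 98 of the regions, at 27 of the 60 genes, belonged to the named set. The other 33 genes of the set had no region.

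Binding was measured by ChIP-seq, with lab-made antibodies against CREB and CRTC, in nuclei purified from the mushroom bodies (MBs), the brain centres for olfactory memory in flies. All flies were of the strain given as CS10 in the labels and w(CS10) in the study's methods, and carried a FLAG-tagged KASH domain, a nuclear membrane anchor, driven by MBp-LexA. Neurons of the α′/β′ lobe carry little of this driver's label compared with those of the α/β and γ lobes. They may be less represented in the nuclei, which was not measured, and each preparation pooled many flies. For each of the 2 conditions, naive and 1 day after spaced training, in which an odor is paired repeatedly with electric shocks with rests between, there were 3 CREB and 3 CRTC libraries, and naive flies also gave 1 library of input DNA. The flies were of both sexes, and no age is given in the labels. Each site in the lists has a single score and a single false discovery rate (FDR). The study presents the CRTC sites under binding examined 1 day after spaced training, but does not state whether naive libraries also entered the lists. No value could therefore be given per library or group, and nothing below compares trained with naive flies.

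CREB is a transcription factor that binds DNA at cyclic AMP response elements, and CRTC is a coactivator that enters the nucleus and joins CREB there. Histone acetyltransferases (HATs) open chromatin by acetylating histone tails and histone deacetylases (HDACs) reverse this, often inside corepressor complexes. Trithorax group proteins keep genes active and Polycomb group proteins keep them silent through histone methylation and ubiquitination, while remodelers use ATP to slide or evict nucleosomes. Several genes of these kinds have been tied to long-term memory, and the question for which the sites were mapped was which genes CREB and CRTC occupy in the MBs while such a memory is maintained.

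The 27 bound genes made up 45% of the set, beside 19.4% of all RefSeq protein-coding genes (2707 of 13951) that had a region. The classes held only 2 to 11 genes each, and differences between their counts were not tested. Both members of the GAGA factor class (Trl and psq) had regions, as did 5 of 8 HDAC and corepressor genes, 5 of 8 genes of Polycomb repressive complex 1 (PRC1) and its recruitment, and 6 of 11 remodelers. Of the 6 HAT genes and the 6 trithorax and COMPASS genes, 2 each had a region, as did 3 of 9 other methyltransferase and demethylase genes, 1 of 3 genes for chromatin readers and SUMO ligases, and 1 of 2 genes of the Mediator kinase module. None of the 5 genes of Polycomb repressive complex 2 (PRC2), the H3K27 methyltransferase, had a region. A class of 5 is too small to set this apart from the 19.4% of all genes. Since the genes were chosen with results of these data known, the counts are descriptions without a test.

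**Figure D1:**
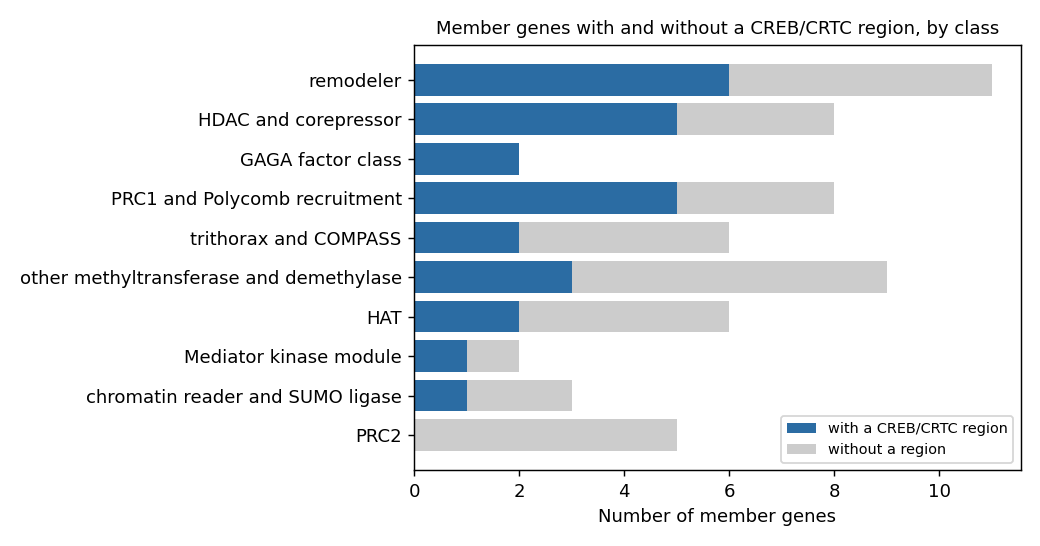
Genes of each class with and without a CREB/CRTC-binding site (horizontal bars, number of genes on the x axis). Remodelers had the most bound genes, 6 of 11, and PRC2 had none of 5.

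Genes for enzymes were found among both the unbound and the bound genes, the bound ones including trx, nej, brm and Mi-2. Among the HATs, Pcaf (the symbol of Gcn5, the H3K9 acetyltransferase of SAGA), Tip60, mof and enok had no region. Among HDACs and corepressors, Hdac3, the nuclear deacetylase Rpd3 and CoRest had none, while Smr and Sin3A, the scaffolds that hold Hdac3 and Rpd3, did. The methyltransferases trr, ash1, Set1, Set2, Su(var)3-9, egg and G9a and the demethylases Utx, lid and Kdm4A had none. Neither did the PRC2 genes E(z), esc, Su(z)12, Jarid2 and Caf1, the PRC1 genes Sce and Scm, and the Polycomb recruiter pho. The rest without a region were the remodeler genes mor, Snr1, Bap60, Iswi and Chd1, the Mediator gene kto, the gene of the heterochromatin protein HP1a and the SUMO ligase gene Su(var)2-10.

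A site between 2 genes was given to only 1 of them in the table, so the neighbours of the unbound genes were examined. Of 32 unbound genes that could be placed in the RefSeq gene order, 5 (15.6%) stood beside a protein-coding gene with a region within 500 bp of its own transcription start site (TSS), compared with 28.5% of all 11244 unbound protein-coding genes. For Pcaf that neighbour was tral, for enok CG4049 and for Set2 CG1998, in each case with a region over the neighbour's TSS. For Su(z)12 it was Pfdn6, whose region lay 70 bp from the TSS, and for mor it was Hel89B, at 13 bp. The other 27 placed genes had no neighbour of this kind.

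The bound genes of the set held more regions than bound genes over the whole table. Their median was 3 regions a gene, compared with 1 over all bound genes, and 7 of them (25.9%) had a single region, compared with 60.7% of all. Of the 27 genes, 10 (37.0%) had 5 or more regions, beside 4.41% of all bound genes (125 of 2833). The most were found at trx, psq and osa, with 9 each, below the 17 of the gene with the most in the table. The set was chosen with results of these data known, gene length was not taken into account, and the difference was not tested. By chromosome the regions numbered 27 on X, 24 on 2R, 21 on 3R, 19 on 3L and 7 on 2L, with none on chromosome 4. Over all 4995 regions the numbers in the same order were 835, 1008, 1240, 1043 and 851, with 18 on chromosome 4.

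Binding strength was read from the authors' peak score and from its percentile, the percent of sites in the same list that scored lower. A higher score was taken as stronger binding over the input DNA. The study called peaks by 2 algorithms and does not state which gave the score, or how replicates became 1 value. The CRTC score of the 98 regions ran from 1.84 to 29.5 with a median of 6.30, and the median over all 4995 regions was 4.66. Of the 98, 17 (17.3%) reached the top 10% of the CRTC list, beside 11.8% of all regions (589 of 4995). Of these 17, 5 were at Trl, 3 at trx, 2 each at Smr and fs(1)h, and 1 each at Psc, ph-d, ash2, skd and osa. Without Trl the share would lie close to that of all regions, so the excess came largely from 1 gene. The CREB score of the nearest CREB site had a median of 5.22, compared with 4.61 over all regions. The highest FDR of a CRTC site in the set was 0.00838, and the reads behind each score were not counted in these lists, so the depth of single sites is unknown and no error can be put on a score.

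**Figure D2:**
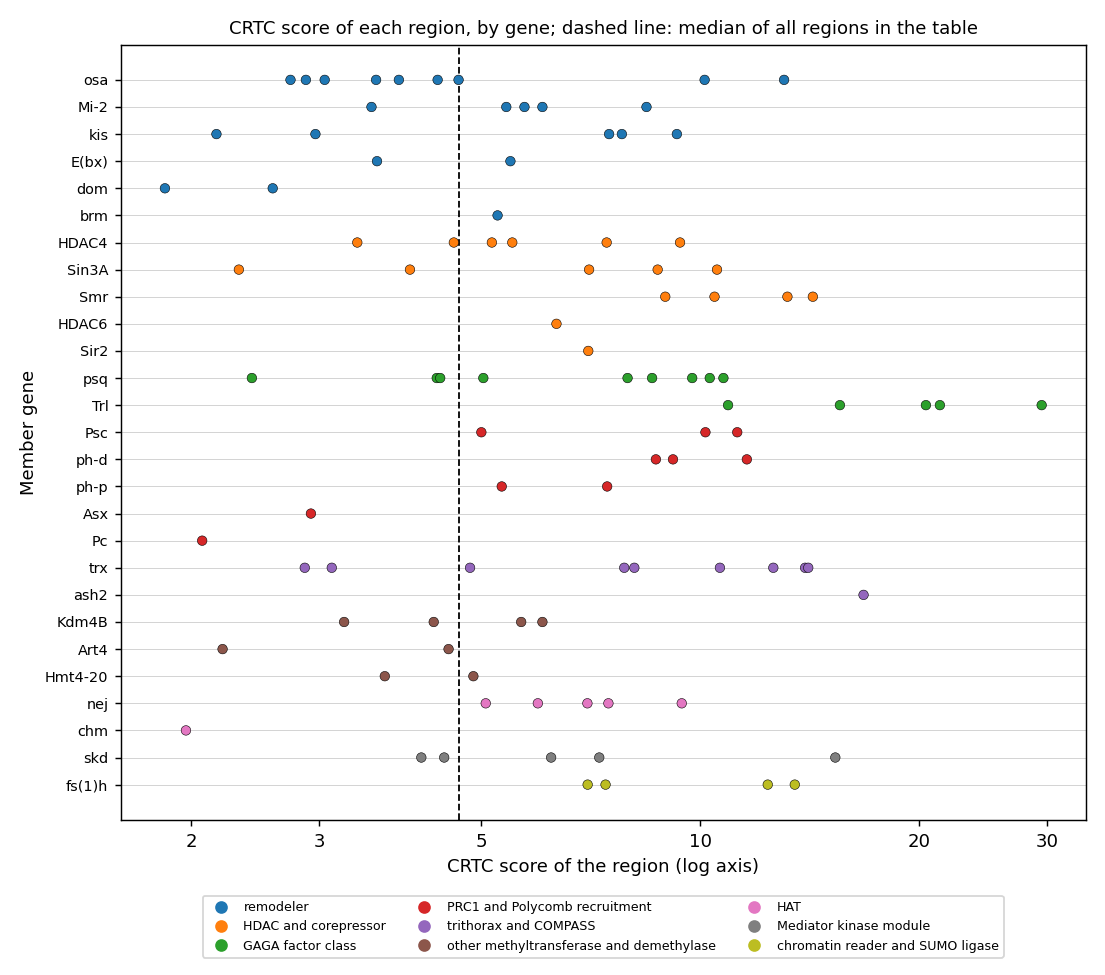
CRTC score of every region (x axis, log scale) for each of the 27 bound genes (rows, coloured by class), with a dashed line at the median of all 4995 regions, 4.66. All 5 Trl regions, all 4 Smr regions and all 4 fs(1)h regions lie to the right of the line, and the highest point is a Trl region at 29.5.

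The 3 highest CRTC scores of the set were all at Trl, in the GAGA factor class. Trl encodes GAGA factor, which binds GA-rich DNA, keeps promoters free of nucleosomes and takes part in both Polycomb and Trithorax recruitment. Its 5 regions, on 3L in genome build dm3, had CRTC scores of 21.4, 20.4, 15.6, 10.9 and 29.5 from the lowest coordinate to the highest. The matching CREB scores were 19.7, 21.7, 23.0, 10.9 and 29.7. All were in the top 10% of the CRTC list, and the highest, at chr3L:14753143-14753299, was at percentile 99.7. The weakest of the 5, at chr3L:14751056-14751192, was the one that covered a TSS. The regions spanned 5064 bp, and their listed distances pointed to 2 different TSSs.

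The other GAGA class gene, psq, encodes a BTB protein that binds the same kind of GA-rich sequence and acts in Polycomb silencing. It had 9 regions spread over 15560 bp of 2R, with distances pointing to 4 TSSs. From the lowest coordinate their CRTC scores were 4.35, 10.3, 9.76, 2.42, 10.8, 5.04, 8.59, 4.40 and 7.95. Their CREB scores in the same order were 3.50, 9.69, 9.52, 2.70, 6.67, 4.79, 4.27, 2.23 and 8.33. Strong and weak sites alternated along the gene, and none reached the top 10% of the CRTC list, unlike all 5 at Trl. The 2 regions within 500 bp of a TSS scored 2.42 and 7.95.

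Among trithorax genes, trx encodes the H3K4 methyltransferase that gave the group its name. Its 9 regions spanned 9107 bp of 3R, from chr3R:10103566-10103648 to chr3R:10112563-10112673, and all referred to the same TSS. At 8976, 8713 and 7993 bp downstream of that TSS the CRTC scores were 3.12, 7.87 and 8.12. At 4055, 3342, 2832 and 1532 bp they were 4.83, 13.9, 12.6 and 10.7, and at 335 bp the score was 14.1. The region over the TSS itself scored 2.86, the lowest of the 9. CREB scores were likewise high between 7993 and 335 bp, with 12.4, 12.7, 11.2, 12.8 and 12.0 at 5 of the 6 regions there, and low at the TSS, at 3.17. The strong sites of trx were thus all downstream of its start, and the site over the start was the weakest for CRTC.

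The other bound gene of this class, ash2, encodes a core subunit of the COMPASS methyltransferase complexes. It had 1 region, chr3R:20476972-20477116, placed 22 bp upstream of the TSS. The CRTC score was 16.8 and the CREB score 11.0, at percentiles 97.3 and 90.3 of their lists. Only Trl, among the bound genes, had a region with a higher CRTC score.

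Corepressor and deacetylase genes differed in where CRTC was found. Smr encodes the fly counterpart of the nuclear receptor corepressors SMRT and NCoR. Its 4 regions lay together within 2203 bp of X, at 6702, 6096, 5700 and 4637 bp downstream of the TSS. Their CRTC scores were 10.5, 8.96, 14.3 and 13.2, and their CREB scores 4.41, 3.71, 9.52 and 4.81. CRTC scores at Smr were high in all 4 regions, while only chrX:12630250-12630402 had a CREB score above the 80th percentile of the CREB list. None lay within 500 bp of the TSS, which among the bound genes held only for Smr, ph-p and chm.

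Sin3A encodes the scaffold of the Sin3 corepressor. Its 5 regions on 2R, spanning 4786 bp and 3 TSSs, had CRTC scores of 10.6, 8.75, 7.04, 4.00 and 2.33 in order of coordinate. The CREB scores were 9.55, 6.90, 12.8, 3.51 and 2.29. The region over a TSS, chr2R:8480314-8480416, was the lowest of the 5 for both proteins.

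HDAC4 encodes a class IIa deacetylase that shuttles between nucleus and cytoplasm. It had 6 regions over 12629 bp of X, next to 2 TSSs. Those 77 and 71 bp upstream of a TSS had CRTC scores of 3.38 and 5.18, and the one 535 bp downstream scored 4.59. The 3 listed farther upstream, at 4468, 5602 and 5964 bp, lay between the 2 TSSs and scored 7.44, 5.52 and 9.39. The CREB score was highest, 11.3, at the site farthest upstream, chrX:13172741-13172851. The regions far from the TSSs had higher CRTC scores than those near them.

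HDAC6, which encodes a mainly cytoplasmic tubulin deacetylase, had a single region over its TSS, chrX:15227331-15227457, with a CRTC score of 6.35 and a CREB score of 6.80. The NAD-dependent deacetylase gene Sir2 had a single region 149 bp downstream of its TSS, with scores of 7.02 and 6.87. For these single-region genes the percentiles in the 2 lists lay close together, 71.4 and 77.9 at HDAC6 and 75.9 and 78.2 at Sir2.

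Of the HATs, nej encodes the CREB-binding protein CBP, a coactivator that acetylates H3K27 and itself joins CREB. Its 5 regions lay within 2686 bp of X around 3 TSSs. The CRTC scores were 7.0, 7.48, 9.44, 5.99 and 5.08 and the CREB scores 7.67, 6.12, 10.4, 8.36 and 3.89 in order of coordinate. The highest for both was the region 38 bp upstream of a TSS, chrX:9579738-9579902. The MYST family HAT gene chm had 1 region, 35 bp wide and 6296 bp downstream of its TSS, with a CRTC score of 1.97, at percentile 6.01. Its nearest CREB site lay 162 bp away, did not touch the region, and scored 5.50. At nej 3 of the 5 regions were within 500 bp of a TSS and the others were 638 and 1239 bp downstream, while the chm site was at the low end of the CRTC list.

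The other methyltransferase and demethylase genes had a CRTC median of 4.41, the lowest of any bound class, with no region above 6.07. Hmt4-20 encodes the H4K20 methyltransferase Suv4-20. It had 2 regions on X, with CRTC scores of 3.69 at 449 bp downstream of the TSS and 4.88 over the TSS, and CREB scores of 4.61 and 4.78. Kdm4B encodes a demethylase of methylated H3K9 and H3K36. It had 4 regions on 2R, of which the pair over TSSs had CRTC scores of 6.07 and 4.31, and the pair 1457 and 2857 bp upstream had 5.68 and 3.24. The CREB scores at Kdm4B were 6.11 and 6.15 over the TSSs and 2.81 and 2.08 upstream. The CREB scores separated the TSS sites from the upstream sites, and the CRTC scores did not. Art4, which encodes an arginine methyltransferase related to mammalian CARM1, had a CRTC score of 4.51 at 6795 bp downstream and 2.21 at 187 bp upstream.

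Within the Polycomb group, regions were listed at 5 of the 8 PRC1 and recruitment genes and at none of the 5 PRC2 genes, a difference that was not tested. Psc encodes a RING finger subunit of PRC1. Its 3 regions on 2R had CRTC scores of 11.2 at 92 bp downstream of the TSS, 5.01 at 3598 bp upstream and 10.2 at 4714 bp upstream. The CREB scores there were 13.6, 2.24 and 9.95. Both proteins scored high near the start and at the far site of Psc, and the site between was weak for CREB.

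The neighbouring duplicates ph-d and ph-p encode the Polyhomeotic subunits of PRC1. Regions of ph-d lay 175, 675 and 1248 bp upstream of its TSS, with CRTC scores of 11.6, 8.70 and 9.18 and CREB scores of 10.1, 2.94 and 4.30. Regions of ph-p lay 1627 bp downstream and 1357 bp upstream, with CRTC scores of 7.46 and 5.34 and CREB scores of 2.44 and 4.85. These genes are close copies of each other, and the authors removed poorly mapped reads. Reads from shared sequence could therefore be lost or placed at either gene, and the split of binding between them is uncertain. The chromodomain protein gene Pc, whose product reads H3K27 methylation, and the deubiquitinase partner gene Asx had 1 weak region each close to the TSS. Their CRTC scores were 2.07 at 31 bp and 2.92 at 23 bp.

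Remodeler genes had the most regions, 24, and a CRTC median of 4.51, below the 4.66 of all regions. Of their regions, 11 lay within 500 bp of a TSS. The SWI/SNF subunit gene osa, which encodes the ARID protein that marks the BAP complex, had 9 regions over 15444 bp of 3R. The 5 farthest downstream of the TSS, between 15287 and 11376 bp, had CRTC scores of 4.36, 2.87, 3.86, 3.05 and 4.66. The regions at 5365 and 1008 bp had 10.1 and 13.0, and those at 33 bp and over the TSS had 2.74 and 3.59. Most of osa's sites were weak for CRTC, and the pair strong for CRTC stood downstream of the start. Their CREB scores were 3.90 at 5365 bp and 16.6 at 1008 bp, so only the region at 1008 bp was strong for both proteins. At 5 of the 9 sites no base was shared with a CREB site, so these were CREB/CRTC-binding sites by nearness alone.

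brm, the ATPase of the same complex, had 1 region 9 bp upstream of its TSS, with a CRTC score of 5.27 and a CREB score of 4.66. Mi-2, the ATPase of the NuRD complex, had 5 regions on 3L, listed relative to 2 TSSs. Those 6646, 7616, 8128 and 8680 bp upstream of the first TSS had CRTC scores of 5.74, 6.07, 5.42 and 8.44 and CREB scores of 7.15, 8.65, 6.76 and 11.5. The region over the other TSS was lower for both, at 3.54 and 4.2. The 4 stronger sites of Mi-2 lay between its TSSs, and 12420 bp separated the last of them from the region over the other TSS.

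The CHD family remodeler gene kis had 5 regions at the 2 ends of a stretch of 30212 bp on 2L, the widest span among the bound genes. The CRTC scores were 7.81 and 9.29 at one end and 7.5, 2.96 and 2.17 at the other, and the CREB scores were 3.85 and 9.87 and then 11.3, 2.78 and 3.32. E(bx), which encodes the large subunit of the NURF remodeler, had adjacent regions 8 bp apart at its TSS, with CRTC scores of 3.60 and 5.49. A single CREB site with a score of 5.22 overlapped both regions. The SWR1-type ATPase gene dom had regions over and 404 bp downstream of its TSS with CRTC scores of 2.59 and 1.84. The second was the lowest CRTC score in the set.

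The kinase module is a detachable part of Mediator, the complex that links enhancer-bound factors to RNA polymerase II. The module's subunit gene skd had 5 regions within 3920 bp of 3L. Their CRTC scores were 7.27, 4.45, 6.24, 15.3 and 4.14, and their CREB scores 6.54, 4.88, 6.91, 18.4 and 3.48. The strongest for both proteins was chr3L:21019392-21019552, 88 bp upstream of a TSS. Its partner kto had no region.

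The BET bromodomain gene fs(1)h, a reader of acetylated histones, had 4 regions over 4528 bp of X, and all 4 lay within 500 bp of a TSS. The CRTC scores were 7.01 over a TSS, 7.42 at 351 bp downstream, 13.5 at 274 bp upstream and 12.4 at 55 bp upstream. The CREB scores in that order were 9.46, 12.6, 12.2 and 26.7. The last, from a CREB site overlapping chrX:7955062-7955238, was at percentile 99.3 of the CREB list. Only fs(1)h, among genes with 3 or more regions, had all its regions near a TSS.

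The position of regions relative to the TSS differed between the set and the table. A distance below 0 was read as upstream of the TSS to which the table refers a region, and at genes with several TSSs such a region can lie downstream of another of them. Within 500 bp of a TSS lay 42 of the 98 regions (42.9%), compared with 63.8% of all regions, and 12 (12.2%) covered a TSS, compared with 21.0%. More than 500 bp downstream lay 36 (36.7%), compared with 20%, and more than 500 bp upstream lay 20 (20.4%), compared with 16.2%. Beyond 5000 bp in either direction the shares were 20.4% and 8.43%. Counted by gene, 24 of the 27 genes (88.9%) had a region within 500 bp of a TSS, compared with 84.4% of all bound genes. Genes of the set had more regions, with a median of 3 compared with 1, and both ways of counting move with that number, so these shares are not matched. The distal regions came beside a site near a TSS at most of these genes. No annotation of the build used was at hand, so exons and introns were not analysed here.

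**Figure D3:**
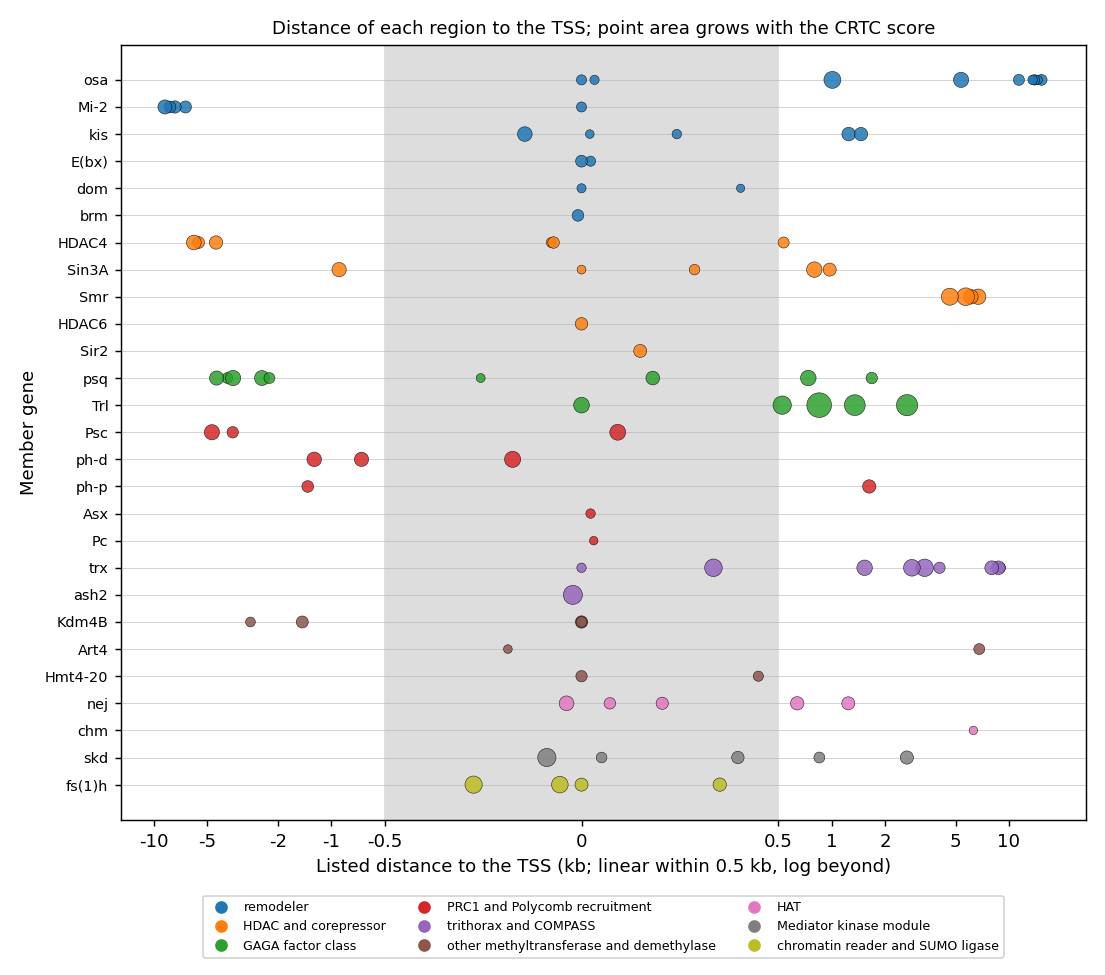
Listed distance of each region to the TSS (x axis in kb, linear within 0.5 kb and log beyond, negative upstream) for the 27 bound genes (rows, coloured by class), with point area growing with the CRTC score and the band within 500 bp shaded. In the band lie 42 of 98 regions, the Smr, trx and osa sites extend downstream, and the HDAC4, Mi-2 and psq sites extend upstream.

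Neighbouring regions of 1 gene lay about as close in the set as elsewhere. The median gap between consecutive regions was 818 bp over 71 gaps, compared with 805 bp over all genes, and 57.7% of gaps were at most 1000 bp, compared with 55.5%. Regions of the set were somewhat wider, with a median of 124 bp compared with 106 bp.

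CREB and CRTC scores were related across the regions. Spearman's rho was 0.765 and Pearson's r of the log2 scores 0.786 over the 98 regions, compared with 0.816 and 0.840 over all regions. Regions of a gene share libraries and input, so they are not independent, and the values are descriptions. A CREB site shared at least 1 bp with 87 of the 98 regions, and 11 (11.2%) had only a CREB site nearby, compared with 9.65% of all. In genes with several regions, the region with the highest CRTC score also had the highest CREB score in 13 of 20 (65%). Over all genes with several regions this held in 899 of 1114 (80.7%). The exceptions in the set were trx, Kdm4B, ph-p, psq, kis, Sin3A and fs(1)h.

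At 9 regions (9.18%) the CRTC percentile exceeded the CREB percentile by more than 30 points, compared with 3.72% of all regions, and the reverse held at 5 (5.10%), compared with 7.53%. The widest difference toward CRTC was at HDAC4, chrX:13171245-13171313, with a CRTC score of 7.44 at percentile 78.3 and a CREB score of only 2.25. Next came ph-p with percentiles of 78.4 for CRTC and 24.9 for CREB at its downstream region and ph-d with 83.9 and 36.9 at its middle region. The rest of the 9 were at Psc, osa, Smr, Kdm4B, psq and a second site of HDAC4. That site rests on the nearest CREB site, with a score of 2.63, and another CREB site within 200 bp of it had a score of 7.27. Toward CREB the widest difference was at chm, with 6.01 for CRTC and 70.5 for CREB, and the others were at kis, dom, osa and HDAC4. HDAC4 and osa thus held regions of both kinds.

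**Figure D4:**
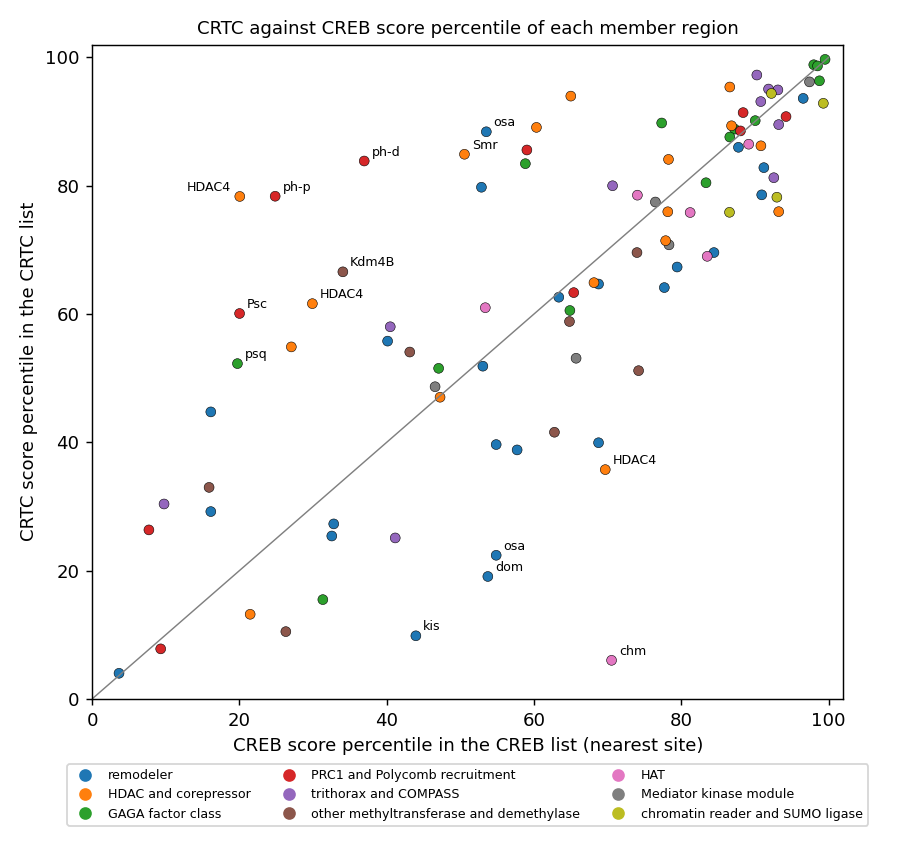
CRTC score percentile in the CRTC list (y axis) against the CREB score percentile of the nearest CREB site (x axis) for each of the 98 regions, coloured by class, with the line of equal percentiles. The 9 and 5 regions more than 30 points off the line are named, and the Trl points gather at the upper right end.

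Chromatin genes outside the set were looked up in the same table. Of 93 such genes from a list written with earlier results known, 15 (16.1%) had a region, beside 19.4% of all protein-coding genes. Their 38 regions had a median CRTC score of 5.84 and a median CREB score of 7.19. Among them the most regions were at Kdm2, which encodes a JmjC histone demethylase, with 8, and at Su(z)2, the neighbour and relative of Psc, with 6. MEP-1, corto and simj had 4 each and Eaf6 had 3. All the rest of these bound genes had 1 each, while the bound genes of the set had a median of 3. The highest CRTC scores of those genes were 28.9 at Kdm2 and 44.5 at Su(z)2, the second above every region of the set. The share within 500 bp of a TSS was 44.7%, close to the 42.9% of the set.

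Each of 7 MB genes looked up (ey, toy, dac, Fas2, mub, dnc and rut) had at least 1 region, the neuronal gene elav had 5 and the glial gene repo had 0, beside 19.4% of all protein-coding genes with a region. Binding does not measure expression, and most genes of any kind had no region, so this is no check of the tissue.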

How the data were processed

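ChIP DNA was sequenced by the authors as read pairs and mapped to the Drosophila genome (dm3) in CLC Genomics Workbench. Pairs over 500 bp apart and poorly mapped pairs were removed. Peaks were called against input DNA by the PICS and ERD algorithms in Strand NGS, and regions found by both were kept. The read density that a peak needed was set higher for CRTC than for CREB. A peak also had to be present in 2 or more of the 3 replicates. The deposited CREB list (7243 sites) and CRTC list (5990 sites) give each site a score and a false discovery rate (FDR). The FDR is read here as a q-value, and both values are as the authors listed them. They also deposited a table of CREB/CRTC-binding sites with the gene and the distance to the TSS in bp. Its remaining columns hold the authors' own DESeq2 fold changes and adjusted p-values, for CREB and CRTC, of spaced trained against naive flies over windows of the genome. These were not used, so no training comparison was made.

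Member regions were found by gene symbol, and scores were joined by coordinates, with the nearest CREB site within 200 bp. Widths are end minus start. Python 3.11.15 and pandas 2.3.3 were used, and the joins were tested on simulated data. Gene names and neighbours came from RefSeq (Release 6), in which 2763 of the 2833 symbols and 58 of the 60 members matched 1 gene; no coordinates were taken from it. Values per library and the reads behind a site were not used here, so there is no replicate error. The members and lists were chosen with earlier results of these data known. Named were the study's candidates and HATs, members with 3 or more regions, those with the 5 highest or 5 lowest CRTC scores, and those with a top 10% site over the TSS. Sir2, ph-p, Asx, brm and E(bx) were added after their values were seen, so that every bound member is described. Alternatives were the width, score, overlap and TSS limits and the counting of 1 region a gene.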

Additional observations from a re-analysis of the deposited data

Results flagged for a closer look

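Strong CREB sites with no CRTC site within 200 bp stood among the regions of 2 members, outside the CREB/CRTC table used above. They are given because their scores were above the 80th percentile of the CREB list, a limit set after the values were seen. The authors required a higher read density for CRTC peaks than for CREB peaks, so these sites are not shown to lack CRTC. At Sin3A a CREB site at chr2R:8476591-8476739 had a score of 13.6, at percentile 94.1, above every CREB score among the gene's own CREB/CRTC-binding sites, and the nearest CRTC site was 762 bp away. A second at chr2R:8477120-8477242 had a score of 7.35, with the nearest CRTC site at 259 bp. At Trl the CREB sites at chr3L:14752028-14752164 and chr3L:14752320-14752422 had scores of 7.47 and 9.82, with the nearest CRTC sites at 836 and 721 bp, and both were below the 10.9 of the weakest CREB/CRTC-binding site of Trl.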

How the results depend on the processing

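The number of member regions (98) was 66 with sites at least 100 bp wide, 74 with a CRTC score at or above the median of the list, 87 with a CREB site sharing at least 1 bp and 75 with at least 50% covered, and the number of bound members (27) lay between 23 and 27 under the same limits. Counting RefSeq synonyms changed neither number. Of the member regions, 42.9% lay near a TSS, and this share was 32.7% within 200 bp and 53.1% within 1000 bp, compared with 52.7% and 75.5% of all regions, and 88.9% with the nearest region of each gene, compared with 84.4%, which turned the direction of the difference. The median CRTC score (6.30) was 9.29 with the highest region of each gene, compared with 5.18 over all genes, 8.04 with sites at least 100 bp wide, compared with 6.17, and 6.07 without trx. The median CREB score (5.22) was 9.52 at the region with the highest CRTC score of each gene, compared with 5.02, and 5.53 with the highest-scoring CREB site within 200 bp. Taking the nearest or highest region raises the values of genes with more regions, of which the members had a median of 3 and all genes 1. No paired analysis was possible because the lists hold 1 value a site, and for the same reason no replicate could be left out. The share of promoters with a cyclic AMP response element was not run, since no promoter sequence was used here. Scores carry no error, and weak sites near the lists' lowest score, 1.51 for CRTC and 1.5 for CREB, cannot be told from sites that narrowly failed to be listed.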

Other observations

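Sites were listed under a stricter read density limit for CRTC than for CREB. Those listed for 1 protein alone also lay between the outermost regions of the members. Of 2182 CREB sites in the whole list without a CRTC site within 200 bp, 15 fell there, at 7 genes, with a median score of 3.23. Beside those at Sin3A and Trl, ph-p held 4 with scores from 1.92 to 6.5, Mi-2 held 3 from 1.5 to 4.32, kis held 2 at 2.20 and 3.11, and HDAC4 and psq held 1 each, at 1.72 and 1.51. The highest at ph-p, 6.5, was above the CREB scores of that gene's CREB/CRTC-binding sites, 2.44 and 4.85. Of 995 CRTC sites without a CREB site within 200 bp, 6 fell there, with a median score of 2.42. Of these, psq held 3 from 1.86 to 2.28, kis held 2 at 2.55 and 4.28, and Trl held 1 at 3.28.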
